A study of Mus musculus with 2 samples.

Results

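The genes described here encode ligands, receptors and feedback regulators of FGF, EGF and Hedgehog signalling, with the cytokine Lif and its receptor, 43 genes in all. Their chromatin loops were taken from Hi-C maps of the uterus. A loop was counted at a gene when an end of the gene lay inside a loop anchor, a bin 10 kb wide, or within 5 kb of it. By this rule 102 of 26240 loops in diestrus and 98 of 24131 loops in estrus lay at the genes. Of the 43 genes, 32 had a loop in at least 1 list and 11 had none.

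Hi-C joins pieces of DNA that are neighbours in the nucleus and sequences each junction, and a loop is a pair of loci in more contact than their surroundings. The uteri came from unexposed control mice of the outbred CD-1 stock at 2 months of age. One library (n = 1) was made in diestrus, when progesterone acts on the uterus, and one (n = 1) in estrus, which follows the estrogen peak. The number of animals behind a library was not found in the sources used here. The tissue was whole uterus, so a loop that is stronger in each cell and a loop present in more of the cells cannot be told apart. With 1 library per stage, differences could not be set against a spread between replicates, and none was tested. Intervals are at 95% and cover counting error only, and those of ratios treat the expected contacts as free of error. Only called loops are listed, so a loop absent from a list may still have contacts there.

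In the uterus these pathways carry signals between epithelium and stroma. FGF ligands of the stroma act on epithelial FGF receptors, and Sprouty, Spred and Dusp6 proteins dampen the resulting MAP kinase signal. Epithelial Indian hedgehog (Ihh), a gene that responds to progesterone, acts on stromal Ptch1 and Smo and, through them, on the Gli transcription factors. EGF family ligands such as amphiregulin and heparin-binding EGF act on the ErbB receptors around implantation, for which Lif from the glands is required.

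The start of the gene lay at the anchor for many of these loops. Strand was known for the 32 members in the RefSeq promoter table (GRCm38.p6), and loops of the other members, 21 in diestrus and 19 in estrus, were not classed. Among the rest, the promoter window overlapped the anchor for 62 loops in diestrus and 58 in estrus, and did not for 19 and 22. Loops were assigned by gene ends, and no such share over all protein-coding genes is given here, so these numbers are a description only. The following are the promoters, 250 bases and the first transcribed base, of the members with at least 6 loops in a list or a difference of at least 2 loops, where the promoter lay in an anchor. Capitals mark the first transcribed base and, in Fgf7, a match to the core motif of the insulator protein CTCF, 5′ to 3′.
Fgf7 (chr2:126034408-126034658, plus strand): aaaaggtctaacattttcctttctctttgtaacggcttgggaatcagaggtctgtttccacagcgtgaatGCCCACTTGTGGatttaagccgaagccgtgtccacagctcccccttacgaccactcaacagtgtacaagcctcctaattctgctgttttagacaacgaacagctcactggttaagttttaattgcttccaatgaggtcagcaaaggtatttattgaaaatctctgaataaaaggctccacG
Fgf10 (chr13:118714449-118714699, plus strand): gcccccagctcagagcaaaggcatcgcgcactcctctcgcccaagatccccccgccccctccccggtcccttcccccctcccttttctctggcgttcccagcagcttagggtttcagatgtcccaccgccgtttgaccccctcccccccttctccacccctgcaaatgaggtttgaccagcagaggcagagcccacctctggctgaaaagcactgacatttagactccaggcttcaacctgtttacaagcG
Fgfr2 (chr7:130266808-130267058, minus strand): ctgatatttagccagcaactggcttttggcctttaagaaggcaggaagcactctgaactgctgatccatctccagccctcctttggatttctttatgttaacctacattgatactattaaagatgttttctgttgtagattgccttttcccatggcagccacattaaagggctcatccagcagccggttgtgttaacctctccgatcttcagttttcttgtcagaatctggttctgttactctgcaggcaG
Spred1 (chr2:117120821-117121071, plus strand): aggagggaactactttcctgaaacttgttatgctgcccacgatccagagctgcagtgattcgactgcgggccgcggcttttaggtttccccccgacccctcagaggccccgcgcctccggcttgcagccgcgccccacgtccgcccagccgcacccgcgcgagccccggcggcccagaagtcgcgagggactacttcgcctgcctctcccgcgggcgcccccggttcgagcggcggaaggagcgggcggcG
Spry2 (chr14:105896819-105897069, minus strand): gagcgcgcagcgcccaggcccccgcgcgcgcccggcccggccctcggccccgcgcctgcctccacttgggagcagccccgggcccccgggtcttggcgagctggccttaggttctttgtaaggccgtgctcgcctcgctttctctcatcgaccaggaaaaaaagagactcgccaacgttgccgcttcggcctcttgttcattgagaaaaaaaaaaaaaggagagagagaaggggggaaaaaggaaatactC
Dusp6 (chr10:99262981-99263231, plus strand): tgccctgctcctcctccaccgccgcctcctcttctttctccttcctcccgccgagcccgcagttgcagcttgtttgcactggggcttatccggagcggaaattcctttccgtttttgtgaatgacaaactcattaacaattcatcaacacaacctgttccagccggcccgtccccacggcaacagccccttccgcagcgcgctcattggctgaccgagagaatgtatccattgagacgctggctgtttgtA
The Fgf7 match, on the reverse strand, begins 180 bases upstream of the start. CTCF was searched as CCNCNAG with GGC 2 bases further on, on both strands of the whole 300 bases, and 2.44% of the 32851 promoters in the table held it. Among 32 members in the table, the letters occurred at Fgf7 and Btc. No member promoter held the estrogen response element, GGTCA and TGACC with any 3 bases between (0.07% of all promoters), the progesterone response element, GNACA and TGTNC with any 3 bases between (0.475%), or the GLI site GACCACCCA (0.253%), each read on both strands. A match is a run of letters and not a bound site, and a missing match says nothing of the factor. GC content was 43.8% at Fgf7 and 44.2% at Fgfr2, with 7 and 2 CpG dinucleotides. It was 70.9% at Spred1, 62.5% at Spry2, 61.4% at Fgf10 and 56.2% at Dusp6, with 32, 23, 9 and 16 CpG. The median over all promoters was 52.2% and 6 CpG.

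The genes had similar numbers of loops in both stages. They had 102 diestrus loops and 99 estrus loops when a loop between 2 members is counted at each, a ratio of 0.971, against 0.954 for all protein-coding genes. Of the 32 members with a loop, 9 had more in diestrus (28.1%), 8 more in estrus (25.0%) and 15 equal numbers (46.9%). Among 12044 protein-coding genes with a loop, 31.5% had more in diestrus, 25.6% more in estrus and 42.9% equal numbers. The members' shares were near this background, but the balance depended on the rule. It was 10 members with more in diestrus against 4 with more in estrus with gene ends inside an anchor, and 13 against 4 when anchors anywhere in the gene body counted. It turned to 4 against 11 when only the strongest diestrus loops were kept, as many as the estrus list holds. That setting removes weak loops from the diestrus list alone, so it can move the balance only toward estrus. Under it Dusp6, with the same loops in both stages, had 5 and 6, and Fgf9 had 0 and 2. Many members held several loops: 13 of the 32 had 4 or more in a list (40.6%), against 20.1% of the protein-coding genes with a loop, and 74.4% of members had any loop, against 55.7% of protein-coding genes. The members were chosen with earlier results of these data known, so the choice may enter these shares, and they are a description only.

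**Figure D1:**
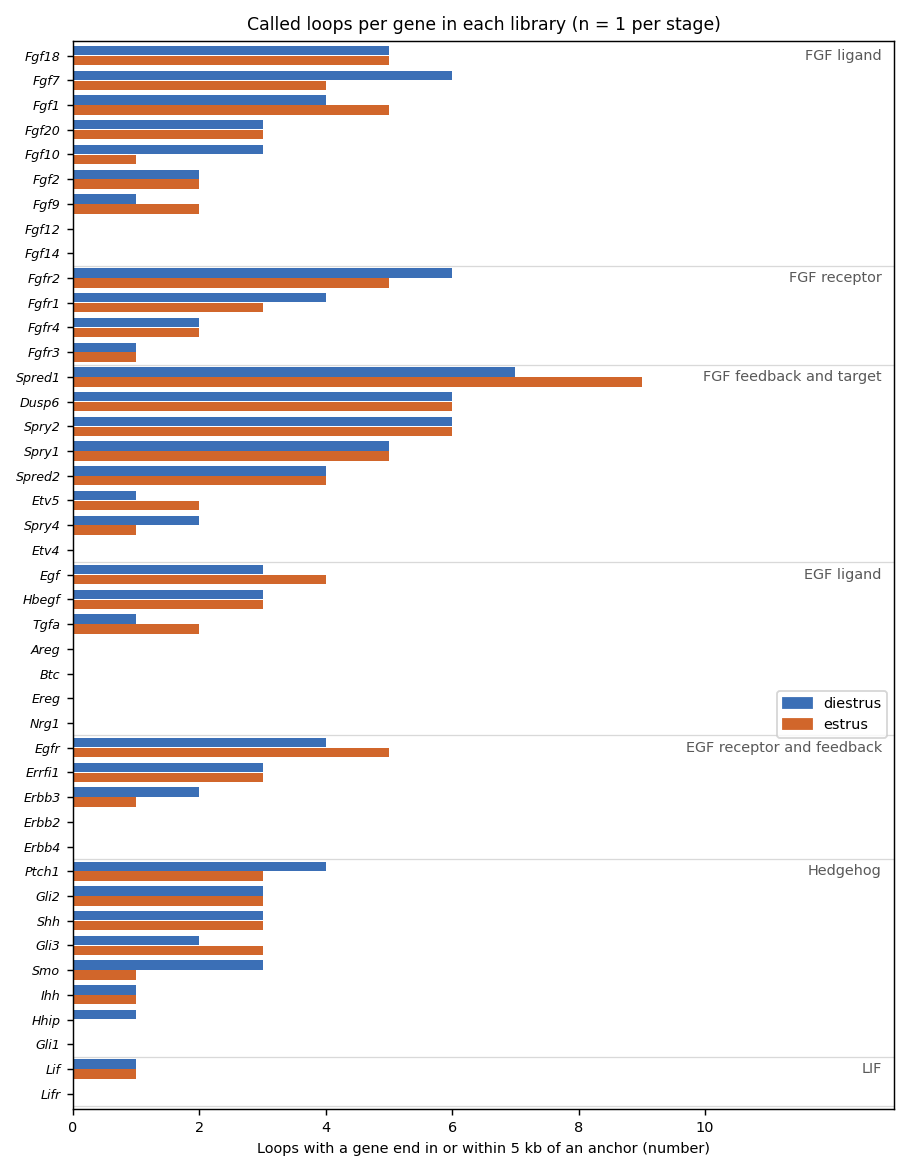
Number of called loops (horizontal axis) at each of the 43 genes, grouped by role, in diestrus (blue) and estrus (orange), 1 library each. Most genes had the same number in both or differed by 1, while Fgf7, Fgf10 and Smo had 2 further loops in diestrus and Spred1 had 2 further in estrus.

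Most of these loops were called in both stages. Of the 102 diestrus loops, 84 (82.4%, Clopper-Pearson interval 73.6% to 89.2%) had a counterpart in estrus with both anchors within 10 kb, against 74.4% of all diestrus loops. Of the 98 estrus loops, 84 (85.7%, 77.2% to 92.0%) had a counterpart in diestrus, against 80.8% of all estrus loops. For loops at any protein-coding gene the shares were 78.0% and 82.1%, inside the members' intervals. With a tolerance of 20 kb the members' shares were 87.3% and 86.7%, so a loop of a single list may have a neighbour just beyond 10 kb. The nearest loop of the other list was offset by 30 kb for single-list loops at Fgf1, Fgf7, Spred2, Spry1 and Spry2. The largest such offset was 430 kb, at Hhip. Strength, the observed contacts over those expected from the donut-shaped neighbourhood, was lower for loops called in a single list. The median strength of the 18 diestrus loops without a counterpart was 2.21 (range 1.79 to 3.48), and that of the 84 others was 3.19. In estrus the 14 loops without a counterpart had a median of 2.37 (1.93 to 3.83), and the 84 others 3.01. The largest of the caller's 4 q-values was above 0.001 for 8 of the 18 (44.4%) and 6 of the 14 (42.9%). Among the shared loops it was above 0.001 for 4 in diestrus (4.76%) and 13 in estrus (15.5%). Loops at any protein-coding gene differed likewise. Their median strengths were 2.56 for a single list and 3.57 for shared loops in diestrus, and 2.56 and 3.63 in estrus. That q-value was above 0.001 for 41.4% and 42.8% of their single-list loops, and for 9.85% and 11.1% of their shared loops. Over all member loops the medians were 2.85 and 2.91, against 3.26 and 3.35 at any protein-coding gene.

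**Figure D2:**
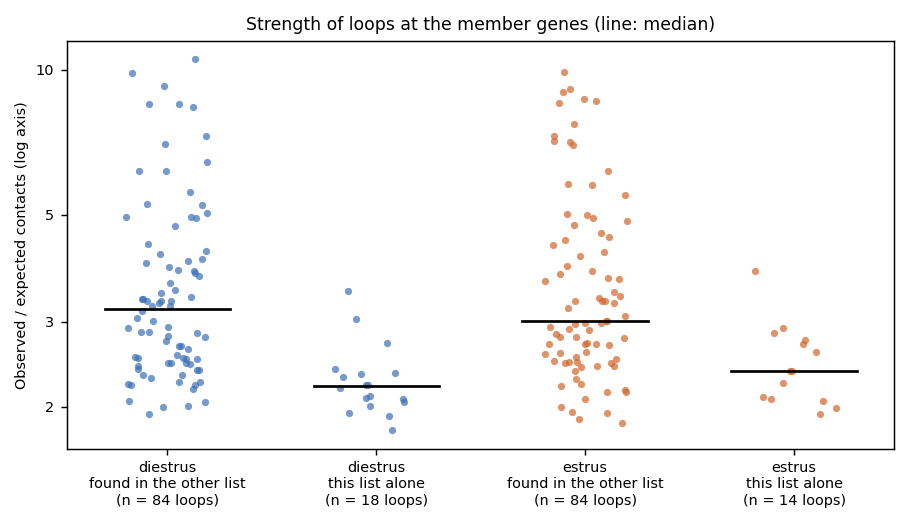
Strength (observed over expected contacts, log axis) of each distinct loop at the 43 genes, by stage and by whether a counterpart was called in the other list; points are loops and lines are medians. Loops of a single list lie below 4, while shared loops reach 10.51 in diestrus and 9.89 in estrus.

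Among the stroma-derived FGF ligands, Fgf7 and Fgf10 had fewer loops in estrus. Fgf7 encodes keratinocyte growth factor, a mesenchymal ligand of the epithelial form of Fgfr2. All its loops left from the anchor at chr2:126030001-126040000, which holds its promoter shown above. It had 6 diestrus loops and 4 estrus loops, and 4 of the 6 were found in estrus. The loop of 330 kb, which ended inside Atp8b4, held 193 diestrus contacts (167 to 222) and 153 estrus contacts (130 to 179). Its strength was 4.06 and 2.99, a log2 ratio of -0.46 (-0.77 to -0.15), estrus over diestrus, centred on the median of all 19399 loop pairs. It was weaker in estrus beyond counting error. The loop of 140 kb into Galk2 held 251 and 195 contacts at strengths 5.59 and 4.93, and the loop of 370 kb, at an anchor of Shc4 beside Eid1, held 56 and 41. Both intervals of the ratio, -0.48 to 0.08 and -0.99 to 0.24, included 0. The fourth loop lay at neighbouring bins, 200 kb away in diestrus and 210 kb away in estrus, with 120 and 83 contacts. The expected contacts at these bins were 46.9 and 24.5, so its strength was 2.56 and 3.39. Its ratio of 0.39 (-0.03 to 0.81) thus pointed the other way although its contacts were also fewer in estrus. The 2 loops called in diestrus alone spanned 120 kb, to Dtwd1 and Fam227b, with 140 contacts (118 to 165) at 2.09 times the expected number, and 390 kb, again into Atp8b4, with 75 contacts (59.0 to 94.0) at 2.34. Their largest q-values were 0.0027 and 0.023.

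Fgf10, a mesenchymal growth factor of branching organs, had 3 diestrus loops and 1 estrus loop. Each left from the promoter anchor at chr13:118710001-118720000. The loop found in both spanned 300 kb with 81 contacts (64.3 to 101) in diestrus and 310 kb with 55 (41.4 to 71.6) in estrus, at strengths 2.86 and 2.42. The diestrus loop of 650 kb, which ended inside Nnt, held 56 contacts (42.3 to 72.7) at strength 3.48 with a largest q-value of 2.2e-05. The diestrus loop of 110 kb held 106 contacts (86.8 to 128) at strength 2.08. No estrus loop lay near them: the nearest was offset by 310 kb and 200 kb. Of the protein-coding genes with a loop, 7.12% had at least 2 further loops in diestrus, and 3 of the 32 members did (9.38%), so the excess at a single gene such as Fgf7 or Fgf10 is of a size seen genome-wide.

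**Figure D3:**
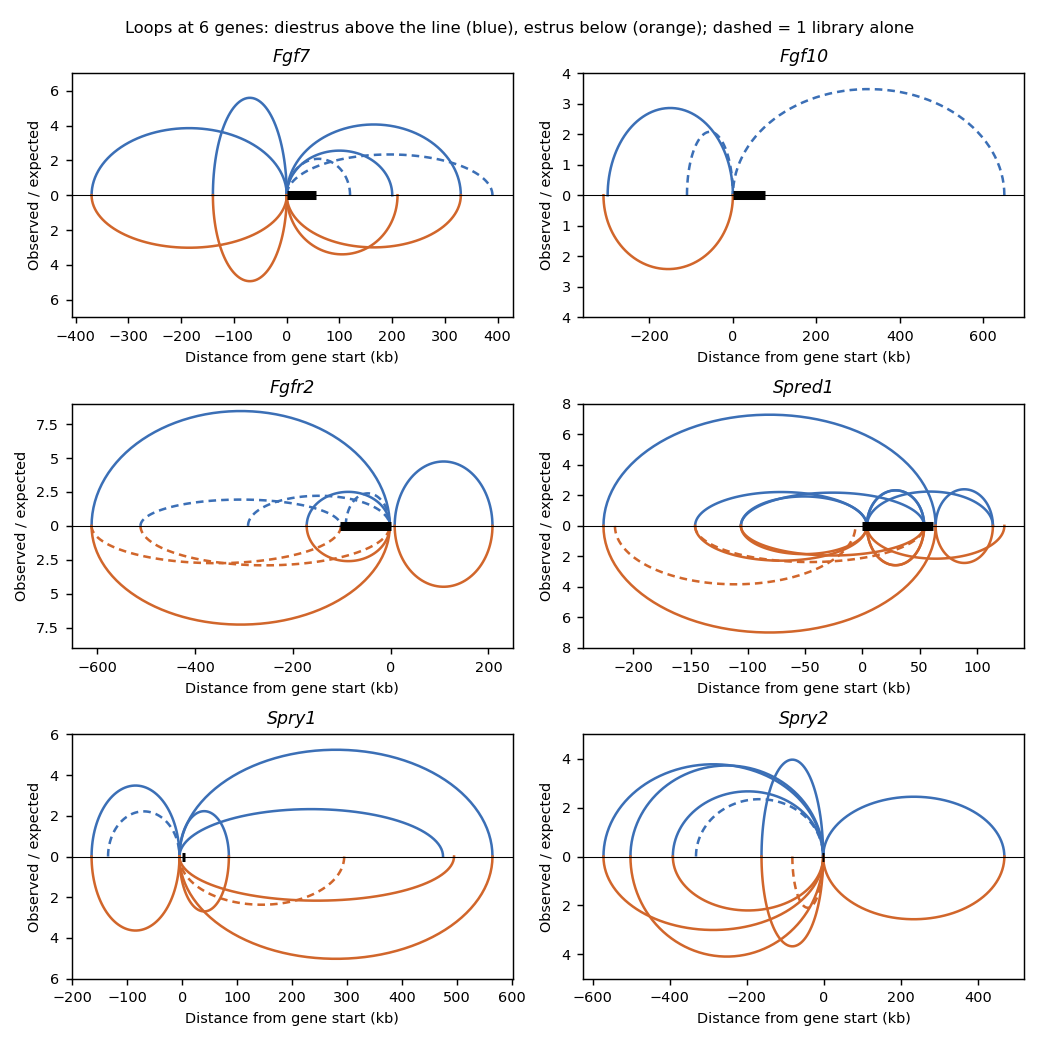
Loops at Fgf7, Fgf10, Fgfr2, Spred1, Spry1 and Spry2. The horizontal axis is the distance from the gene start in kb along the chromosome, and the height of each arc is the strength (observed over expected contacts), with diestrus above and estrus below the line; black bars are genes and dashed arcs are loops of a single list. Fgf10 has 2 dashed loops in diestrus and a single loop in estrus, and most arcs of Spry2 and Fgfr2 point to the same side.

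Fgf18, a ligand of bone and lung growth, had 5 loops in each stage, and each had a counterpart. All 5 ran to the left from anchors it shares with Npm1, the gene of a nucleolar protein. Its loop of 430 kb into Fbxw11 held 132 diestrus contacts (110 to 157) and 149 estrus contacts (126 to 175), at strengths 6.44 and 7.72. Its loop of 120 kb was the richest, with 136 and 160 contacts. The ratios of its 5 pairs were all above 0, from 0.03 to 0.25, and each interval included 0. Fgf2, basic FGF, had 2 strong loops in each stage, at its end rather than its start, in an anchor that also holds ends of Nudt6 and Spata5. The loop of 90 kb to Bbs12 held 670 contacts (620 to 723) and 550 (505 to 598), at strengths 6.17 and 5.77, and that of 200 kb beside Il21 held 134 and 141 at 8.48 and 9.10. Fgf20 had 3 loops in each stage, all at the same positions, to Micu3, Zdhhc2 and Cnot7. Fgf9 had 1 loop of 210 kb in both and a second of 430 kb in estrus, with 91 contacts at strength 1.93. The largest q-value of the second was 0.019, and with q-values of 0.01 or less Fgf9 had 1 loop in each stage. Fgf12 and Fgf14, intracellular FGF homologues, had no loop at their ends. An anchor lay somewhere in Fgf12 for 8 and 6 loops, in the order diestrus and estrus, and in Fgf14 for 2 and 1.

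Fgf1, acidic FGF, and Spry4, a feedback inhibitor of FGF receptors, were the only pair of members joined by a loop. It was called in estrus alone, from the left end of Fgf1 to Spry4 over 240 kb on chromosome 18, with 121 contacts (100 to 145) at strength 2.06. The Spry4 anchor also held an end of Arhgap26. A diestrus loop left from the same Spry4 anchor over 200 kb and ended inside Arhgap26, 40 kb short of the estrus loop, with 172 contacts (147 to 200) at strength 2.01. Fgf1 had 4 diestrus loops and 5 estrus loops. It reached Ndfip1, the gene of a ubiquitin ligase adaptor, from both of its ends in both stages. The Ndfip1 loop from the right end of Fgf1 spanned 460 kb with 62 contacts in diestrus and 470 kb with 64 in estrus, at strengths 3.31 and 4.76, a log2 ratio of 0.51 (-0.02 to 1.04). The richest Fgf1 loop ran 70 kb from the right end to a bin inside the gene, with 369 and 394 contacts at strengths 4.02 and 4.19. A loop of 350 kb with 79 contacts was in the diestrus list alone, and a loop of 590 kb to Gnpda1 with 38 contacts in the estrus list alone. Their largest q-values were 0.0049 and 0.027, and with q-values of 0.01 or less Fgf1 had 4 loops in each stage.

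The receptor genes kept their strongest loop in both stages. Fgfr1, the main mesenchymal FGF receptor, had 4 diestrus loops and 3 estrus loops, all to the left. Its loop of 300 kb was the richest in contacts of all member loops in diestrus, with 928 contacts (869 to 990), and held 783 (729 to 840) in estrus, at strengths 9.25 and 8.71. That anchor also holds an end of Letm2. The single Fgfr1 loop of diestrus alone, of 170 kb, was the weakest member loop, at strength 1.79. Fgfr3 had 1 loop of 50 kb in both stages, with 428 and 440 contacts, at an anchor that also holds Letm1. Fgfr4 had 2 loops in both, of 70 kb and 380 kb, and the longer held 110 (90.4 to 133) and 122 (101 to 146) contacts at strengths 4.93 and 6.18.

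Fgfr2, the receptor for Fgf7 and Fgf10 in epithelium, had 6 diestrus loops and 5 estrus loops, and 3 of each were shared. The largest ran 610 kb to the left from the promoter anchor at chr7:130260001-130270000. It held 474 diestrus contacts (432 to 519) and 386 estrus contacts (348 to 426), at strengths 8.47 and 7.28. The log2 ratio was -0.23 (-0.43 to -0.04), so this loop was weaker in estrus beyond counting error. Of the loops without a counterpart, several joined the same bins in other combinations. In diestrus a loop of 410 kb joined the bin starting at 129750001 to the end of Fgfr2, and in estrus a loop of 510 kb joined that bin to its start. A further estrus loop of 510 kb joined the far anchor of the largest loop to the gene's end, with a largest q-value of 0.099. The other diestrus loops without a counterpart spanned 90 kb inside Fgfr2, with 178 contacts at strength 2.40, and 290 kb, with 76 at 2.22. Chromosome 7 as a whole had 1448 diestrus loops and 1177 estrus loops, and the part of that in the Fgfr2 numbers was not tested.

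Genes of FGF feedback carried the most loops of any group, 31 in diestrus and 33 in estrus over 8 genes. Spred1, an inhibitor of Ras signalling, had the most of any member, 7 in diestrus and 9 in estrus. All 7 diestrus loops were found in estrus. The 2 estrus loops without a counterpart spanned 210 kb with 127 contacts (106 to 151) at strength 3.83, and 200 kb with 203 contacts (176 to 233) at 2.37. Of the protein-coding genes with a loop, 4.29% had at least 2 further loops in estrus, and Spred1 was the only such member. With gene ends inside an anchor, Spred1 had 6 loops in each. Spred1 also had a loop of 50 kb between its own start and end, with 430 diestrus contacts (390 to 473) and 479 estrus contacts (437 to 524). Its strongest, of 290 kb to Tmco5, held 586 and 583 contacts at strengths 7.29 and 6.99. Spred2 had 4 loops in each, from its promoter anchor, of which 3 were shared. The Spred2 loop of 90 kb held 268 diestrus contacts (237 to 302) and 349 estrus contacts (313 to 388), at strengths 2.74 and 3.31, a log2 ratio of 0.26 (0.03 to 0.49). Its loop of 60 kb inside the gene held 408 contacts in each stage. Its strongest diestrus loop, of 140 kb to Actr2, had strengths 3.32 and 2.99. The loops of a single list spanned 110 kb in diestrus, with 289 contacts at strength 2.71, and 280 kb to Rab1a in estrus, with 62 at 2.24.

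The Sprouty genes, which encode inhibitors of receptor tyrosine kinase signalling, differed in their partners. Spry2 had 6 loops in each stage, and 5 were shared. In both stages 5 of the 6 ran to the left, and none reached a protein-coding gene. The loop of 570 kb held 202 diestrus contacts (175 to 232) and 139 estrus contacts (117 to 164), at strengths 3.78 and 3.01, a log2 ratio of -0.34 (-0.67 to -0.03). The loop of 390 kb held 242 and 180 contacts, with a ratio of -0.29 (-0.58 to -0.01). The loop of 500 kb between them went the other way, at strengths 3.73 and 4.10, with a ratio of 0.12 (-0.13 to 0.38). The Spry2 loop richest in contacts, of 160 kb, held 351 and 317 at strengths 3.97 and 3.68. A loop of 330 kb with 168 contacts was called in diestrus alone, and one of 80 kb with 238 in estrus alone. The nearest loops of the other list were offset by 30 kb and 80 kb. Spry1 had 5 loops in each and 4 were shared, among them a loop of 570 kb with 188 (162 to 217) and 149 (126 to 175) contacts at strengths 5.25 and 5.03. In diestrus alone it had a loop of 130 kb into Spata5 with 174 contacts at strength 2.22, and in estrus alone a loop of 300 kb with 198 contacts (171 to 228) at strength 2.37. Its loop of 160 kb, also into Spata5, was the richest in diestrus with 227 contacts (198 to 259), and the estrus library had 219 there. The loop of 90 kb to Gm5148 held 170 and 220. Spry4 had 2 diestrus loops and 1 estrus loop, none shared.

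Dusp6, a phosphatase of ERK that FGF signals switch on, had the same loops in both stages, 6 in each at identical positions, with 3 to each side of an anchor that holds the whole gene. The ratios ran from -0.18 to 0.12, and each interval included 0. Its loop of 60 kb to Poc1b held 514 diestrus contacts (471 to 560) and 466 estrus contacts (425 to 510). The strongest, of 310 kb, had strengths 3.44 and 3.77. Etv5, an ETS factor induced by FGF, had 1 loop of 100 kb in both, into Dgkg, with 271 and 293 contacts. A further Etv5 loop in estrus alone ran 170 kb from the other end of the gene to the same bin of Dgkg. Etv4, its relative, had no loop.

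The EGF family differed from gene to gene. Egf had 3 diestrus loops and 4 estrus loops, all from the end of the gene and not its start. The Egf loop of 380 kb into Enpep was the strongest of all member loops in both stages, with 353 contacts (317 to 392) at strength 10.51 in diestrus and 350 (314 to 389) at 9.89 in estrus. The loop of 150 kb to Elovl6 held 164 and 168 contacts. The fourth Egf loop in estrus, of 1340 kb, was the longest member loop and held 28 contacts (18.6 to 40.5). Its diestrus counterpart had its anchor inside Egf but not within 5 kb of an end, so the rule did not count it. When anchors anywhere in the gene body counted, Egf had 5 loops in each stage. Hbegf, the heparin-binding ligand made by the epithelium at the implantation site, had 3 loops in each. Its loop of 120 kb to Cystm1 and Pfdn1 held 720 contacts (668 to 775) and 788 (734 to 845), at strengths 8.36 and 8.51. The Hbegf loop of 300 kb held 86 diestrus contacts (68.8 to 106) and 108 estrus contacts (88.6 to 130). Its strength was 4.96 and 7.13, a log2 ratio of 0.51 (0.09 to 0.93). All 3 left from an anchor that lay beside Hbegf, not over it, and that also held an end of Slc4a9. Tgfa had 1 shared loop of 170 kb, to Fam136a and Snrpg with 265 and 214 contacts, and a second of 50 kb in estrus alone with 219 contacts at strength 2.08.

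Areg, Ereg and Btc, clustered on chromosome 5, had no loop in either stage, nor did they when the window was widened to 10 kb or the whole gene body was searched. Nrg1, the neuregulin gene, had no loop at its ends, but an anchor lay within its 1084.2 kb for 22 diestrus loops and 20 estrus loops. For Erbb4, of 1076.7 kb, these numbers were 2 and 2.

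Among the EGF receptors, Egfr had 4 diestrus loops and 5 estrus loops, all from its promoter anchor. The loop of 110 kb inside the gene held 491 contacts (449 to 536) and 402 (364 to 443), at strengths 3.61 and 3.32. The loop of 190 kb to Fbxo48 held 203 (176 to 233) and 136 (114 to 161), with a log2 ratio of -0.29 (-0.62 to 0.03), and the fifth loop, in estrus alone, held 157 contacts at strength 1.99. Erbb3, which shares its anchor with Pa2g4, had 2 loops and 1, and Erbb2 had none. Errfi1, an inhibitor of the EGF receptor that progesterone induces, had 3 loops in each, all from its promoter region to the left. None lay at the same position in both stages. The paired loops of 190 kb in diestrus and 200 kb in estrus held 287 and 264 contacts, against 125 and 78.5 expected. Their strengths were 2.29 and 3.36, a log2 ratio of 0.54 (0.29 to 0.78), so the higher strength came with fewer contacts. Those of 70 kb and 50 kb held 521 and 364 contacts at strengths 3.06 and 2.23, a ratio of -0.47 (-0.67 to -0.28). These were the largest ratios in each direction among the members, and they compare bins up to 20 kb apart.

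In the Hedgehog pathway the ligand genes Ihh and Shh kept their loops. Smo, Ptch1 and Hhip had fewer in estrus, Gli3 had more, and Gli2 had equal numbers. Ihh had 1 loop of 310 kb in both stages, to Dnajb2 and Ptprn, with 87 diestrus contacts (69.7 to 107) and 85 estrus contacts (67.9 to 105). The anchor is shared with Cfap65. Shh had 3 loops at identical positions, all to the same side. The loop of 580 kb held 124 (103 to 148) and 130 (109 to 154) contacts at strengths 7.03 and 8.63, and the loops of 840 kb and 880 kb ended inside Lmbr1, the gene that houses the long-range limb enhancer of Shh. Whether either anchor holds that enhancer was not examined. The loops into Lmbr1 held 122 and 102 contacts in diestrus and 128 and 101 in estrus.

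Ptch1, the Hedgehog receptor and a target of the pathway, had 4 diestrus loops and 3 estrus loops. The ratios of its 3 shared loops were all above 0, from 0.07 to 0.35, and each interval included 0. The strongest ran 130 kb into Fancc, with 139 and 151 contacts at strengths 2.84 and 3.46, and that of 250 kb to Ercc6l2 held 153 and 117. The Ptch1 loop of diestrus alone spanned 120 kb with 119 contacts at strength 2.11. Smo, the signal transducer that Ptch1 restrains, had 3 diestrus loops and 1 estrus loop, all at its end in an anchor shared with Ahcyl2. The diestrus loop of 60 kb had an estrus counterpart at a bin not within 5 kb of Smo, so only the loop of 180 kb into Strip2, with 80 contacts (63.4 to 99.6) at strength 2.31, had none. The loop of 50 kb to Tspan33 held 353 (317 to 392) and 324 (290 to 361) contacts at strengths 2.67 and 2.48. Hhip, a Hedgehog-binding inhibitor, had 1 loop in diestrus, of 320 kb into Anapc10 with 82 contacts (65.2 to 102) at strength 3.04, and none in estrus, where the nearest loop was offset by 430 kb. With gene ends within 10 kb, Hhip had 1 loop in each. Gli2 had 3 loops at identical positions, each from its promoter to a bin inside the gene, with ratios from -0.06 to 0.06. Gli3 had 2 diestrus loops and 3 estrus loops, the third of 790 kb with 47 contacts at strength 2.60. Gli1 had no loop, but 1 in diestrus and 2 in estrus with gene ends within 10 kb.

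Lif, the implantation cytokine of the glands, had 1 loop in each stage, at the same position and among the strongest of the member loops. It ran 170 kb from the promoter anchor at chr11:4250001-4260000 into Hormad2. It held 600 diestrus contacts (553 to 650) and 632 estrus contacts (584 to 683), at strengths 9.84 and 9.01, a log2 ratio of -0.14 (-0.31 to 0.02). Lifr, its receptor, had no loop at its ends and 3 in each stage with an anchor in its body.

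In strength, the 84 paired loops of the members were centred near the median of all pairs, with a median log2 ratio of -0.01 and a range from -0.47 to 0.54. No member pair changed by 1.5-fold, against 1.64% of all pairs stronger in estrus and 1.56% stronger in diestrus. The counting interval lay above 0 for 3 member pairs (3.57%), at Errfi1, Hbegf and Spred2, against 6.36% of all pairs. It lay below 0 for 5 (5.95%), at Errfi1, Fgf7, Fgfr2 and 2 Spry2 loops, against 6.98% of all pairs. These shares did not exceed the background.

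**Figure D4:**
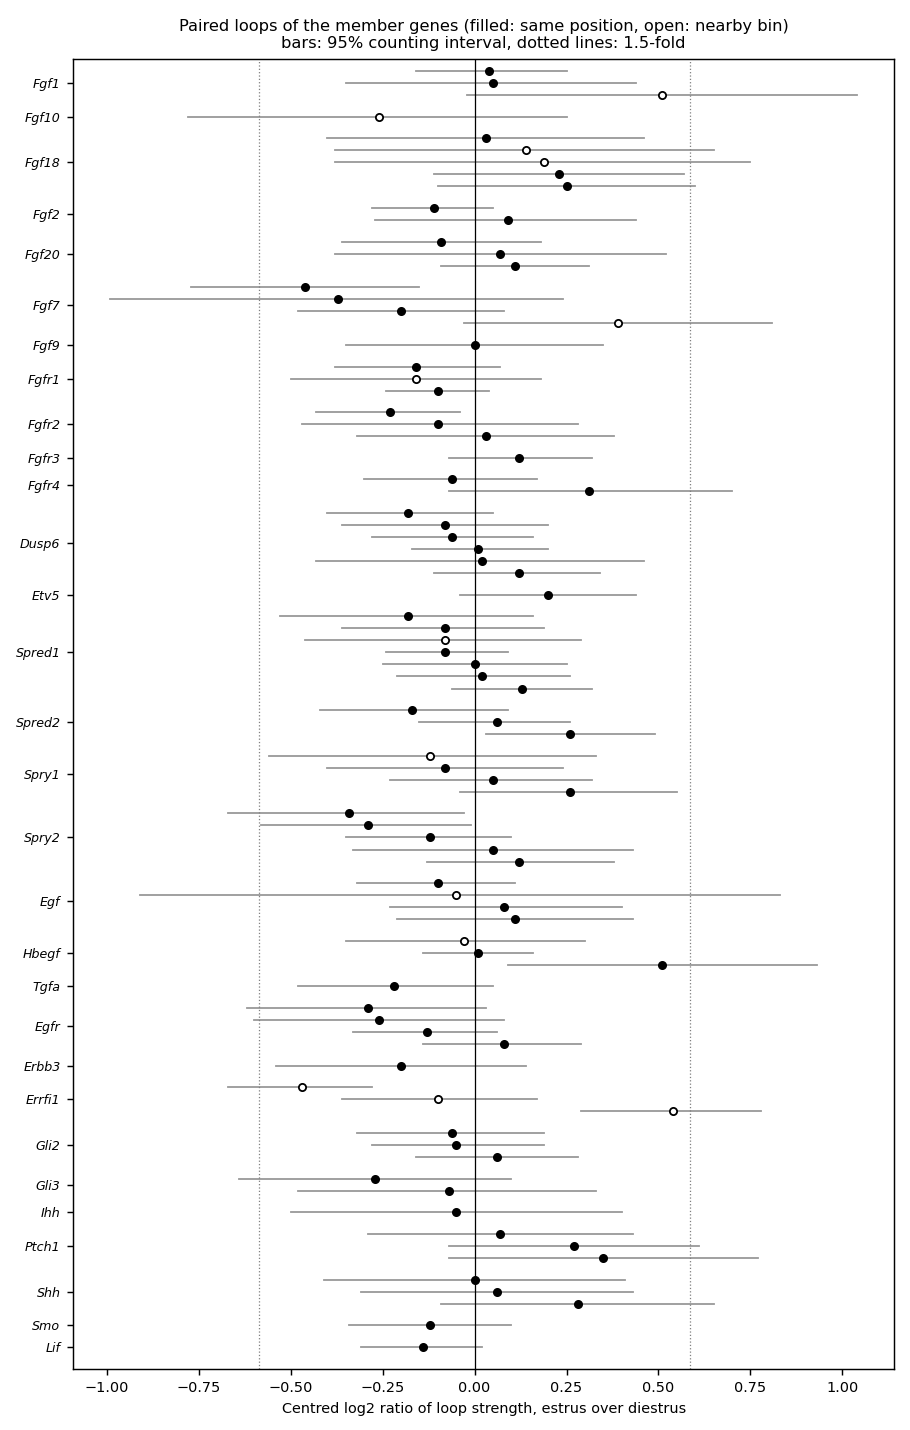
Centred log2 ratio of loop strength, estrus over diestrus, for each of the 84 paired loops by gene, with 95% counting intervals (bars). Filled points are pairs at the same position, open points pairs at a nearby bin, and dotted lines 1.5-fold; all points lie between the dotted lines.

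Partners of the loops were mostly not gene ends. A protein-coding gene end lay at the other anchor for 27 of 102 loops in diestrus (26.5%, 18.2% to 36.1%) and 31 of 98 in estrus (31.6%, 22.6% to 41.8%). Over loops at any protein-coding gene these shares were 29.8% and 30.1%, inside the members' intervals. Another protein-coding gene shared the member's anchor for 21 loops in diestrus and 16 in estrus, and those loops cannot be ascribed to the member alone. The estrus number takes the loop between Fgf1 and Spry4 at its Fgf1 anchor, and leaves out the sharing with Arhgap26 at its Spry4 anchor.

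Further genes of the same pathways, 65 in number, had 141 diestrus loops and 123 estrus loops. Of these genes 47 had a loop, 16 of them more in diestrus, 8 more in estrus and 23 equal numbers. These were 34.0%, 17.0% and 48.9% of the 47, against 31.5%, 25.6% and 42.9% over protein-coding genes with a loop, and 72.3% of the 65 had a loop, against 55.7%. In the FGF pathway the Klotho gene Kl, whose protein is a co-receptor for endocrine FGFs, had 4 diestrus loops and 0 estrus loops. The ETS factor gene Etv1 had 3 and 0, and Flrt2 had 13 and 8. For these further genes only counts are given, and counterparts at nearby bins outside the window were not looked for. Of protein-coding genes with a loop, 7.12% had 2 or more further loops in diestrus. Kl, Etv1 and Flrt2 were named by a difference of at least 3, and no background share at that limit is given here. Dusp4 had 6 and 6, Flrt3 5 and 5, and the adaptor gene Frs2 4 and 4. In the EGF pathway Lrig2 had 6 and 6, Sos2 5 and 4, and Grb2 3 and 4. Among Hedgehog genes, the co-receptor genes Gas1 and Boc had 8 and 8, and 5 and 4, and Scube3 had 4 and 3. In the LIF pathway the receptor gene Cntfr had 9 and 6, and Jak1 and Il6ra each had 4 and 3.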

How the data were processed

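Libraries came from an Arima Hi-C kit, per the labels' protocols. Loops were called with Juicer on mm10, per the submitters' processing notes, with version and settings not given in the sources. Per the file headers, the deposited lists give observed contacts and merged pixels as counts, the contacts expected from 4 neighbourhoods as a signal, the authors' caller's q-values, and positions (other: bases). The lists held 4533525 contacts at loops in diestrus and 4153485 in estrus; full depth is not used here.

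Gene ends came from RefSeq (GRCm38.p6) for 21627 protein-coding genes, all 43 members included. Loops of the lists were matched with both anchors within 10 kb between nearest edges, mutually nearest loops were paired (19399 pairs), and log2 ratios of observed over donut-expected contacts were centred on the median, 0.016. A pair was counted at a member by its estrus loop. Intervals at 95% were exact Poisson (contacts), conditional binomial (ratios) or Clopper-Pearson (shares); contacts carry no molecular identifiers, so they may not be independent molecules. Gene parts used promoter strands. For members with at least 4 loops or a difference of 2 loops, the loop with the most contacts, the strongest loop and loops of a single list were described, and further pathway genes were named with at least 4 loops or a difference of 3. Members and lists were chosen with earlier results of these data known. Methods were tested on simulated data. Python 3.11.15, numpy 2.4.6, pandas 2.3.3 and scipy 1.17.1 were used. No genome sequence was used, so anchors were not searched for motifs.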

Additional observations from a re-analysis of the deposited data

How the results depend on the processing

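Loop numbers at the members stayed within 1.5 times the main numbers under each alternative tried: 82 to 136 in diestrus and 73 to 123 in estrus, with more in diestrus except when only the strongest diestrus loops were kept, as many as in estrus (89 and 99). Demanding identical positions put the shared loops at 69.6% in diestrus and 72.4% in estrus, and a tolerance of 20 kb put them at 87.3% and 86.7%. Members with more loops in diestrus against those with more in estrus were 9 and 8 in the main setting, 10 and 4 with gene ends inside an anchor, 13 and 4 over the gene body, and 4 and 11 when only those diestrus loops were kept. The last setting cuts the diestrus list alone, so it can move numbers only toward estrus. The median strength ratio lay between -0.06 and 0.01. The difference of 2 diestrus loops shrank to 1 at Fgf7 with q-values of 0.01 or less, at Fgf7 and Fgf10 when only the strongest diestrus loops were kept, and at Smo with gene ends within 10 kb. The difference of 2 estrus loops at Spred1 was 0 with gene ends inside an anchor and 1 over the gene body. With gene ends inside an anchor, Egf, Etv5, Fgf20, Fgfr4 and Hbegf had 0 loops in both stages, and Ptch1 had 1 in diestrus and 0 in estrus. No paired analysis was possible because each stage has 1 library.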
